A study of Mus musculus with 13 samples.

Results

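The transcripts described here encode 10 enzymes that make, remodel or dephosphorylate the precursors of phosphatidylcholine, the main phospholipid of cell membranes, bile and lipoproteins: *Chka*, *Chkb*, *Pcyt1a*, *Pemt*, *Lpcat1*, *Lpcat2*, *Lpcat3*, *Plpp1*, *Plpp2* and *Plpp3*. All 10 were found among the 53465 genes of the liver count table, and all 10 passed the filter on low counts. The samples were livers of male BALB/c mice, 6 WT and 7 *Nod2*-/-, with 1 library per mouse. NOD2 is an intracellular sensor of bacterial peptidoglycan, and the study compared liver gene expression of both genotypes in a model of diet-dependent liver cancer. Mice of both genotypes had received the carcinogen DMBA on the skin as pups and were then kept on a high-fat diet (HFD), and the labels give an age of 30 weeks. No library came from mice without DMBA or HFD, so every difference below is between genotypes under both exposures. The WT and *Nod2*-/- mice were bred as separate colonies in 1 room, not as littermates, so genotype and colony cannot be told apart. Gene counts totaled 14886273 to 20579984 per library in WT mice, with a median of 16964780, and 13824780 to 19391431 in *Nod2*-/- mice, with a median of 15618467.

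Liver makes phosphatidylcholine by a pair of routes. In the CDP-choline (Kennedy) pathway, choline kinase (*Chka*, *Chkb*) phosphorylates choline, phosphocholine cytidylyl transferase (*Pcyt1a*) makes CDP-choline in the step that usually limits the rate, and *Chpt1* or *Cept1* joins it to diacylglycerol. In the other route, which is largely particular to hepatocytes, *Pemt* methylates phosphatidylethanolamine. Finished phosphatidylcholine is deacylated and reacylated in the Lands cycle, where the lysophosphatidylcholine acyltransferases *Lpcat1*, *Lpcat2* and *Lpcat3* put an acyl chain back. The lipid phosphate phosphatases *Plpp1*, *Plpp2* and *Plpp3* remove phosphate from phosphatidic acid, lysophosphatidic acid and related lipids.

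*Nod2* had 0 to 4 counts in WT and 1 to 6 counts in *Nod2*-/- libraries, too few to check the genotype labels. Hepatocyte genes dominated every library: summed over 15 markers, normalized counts were 1914906 ± 249736 (SD, n = 6) in WT and 2079998 ± 482505 (SD, n = 7) in *Nod2*-/- mice, most of them from *Alb*, the albumin gene. Of the 15, 6 had positive and 9 had negative fitted values (median −0.15 on the log2 scale). At an unadjusted p under 0.05, 2 were higher and 3 lower, where 12.9% and 10.2% of all genes tested were. The 2 were *Tf* (2.29 times its WT mean) and *Apoa1* (1.44). The 3 were *Cyp2e1* (0.522 of its WT mean), *Cps1* (0.769) and *Hnf4a* (0.790). None of the 15 passed 5% FDR by edgeR, where 1.16% of all genes did. By DESeq2, 1 was higher and 2 were lower, where 3.81% of all genes were higher and 7.26% passed in either direction. The normalized counts above, and all those below, are raw counts rescaled so that every library has the same effective size. Some libraries stood apart by genes of other cell types or states. *Nod2*-/- replicate 7 had 71803 normalized counts of 15 neutrophil markers, against 1154 to 17358 in the other *Nod2*-/- mice and 236 to 2246 in WT mice. Of the 71803, 53827 were from *Lcn2*, which hepatocytes also make. WT replicate 3 and *Nod2*-/- replicates 1, 2 and 4 had 11516 to 16480 normalized counts of 12 liver tumor and progenitor markers, and the other 9 mice had 827 to 7141. WT replicates 2, 3 and 4 had 559 to 1786 normalized counts of *Sftpc*, a surfactant gene of lung epithelium, against 7.84 to 251 in the other 10 mice. Values without some of these libraries are given for *Chka*, *Plpp2*, *Lpcat1* and *Lpcat2*.

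Across the 10 enzymes, *Chka*, *Plpp2* and *Lpcat2* had mean levels 2.27, 2.24 and 2.41 times as high in *Nod2*-/- as in WT mice, *Pcyt1a* was 0.856 of its WT level, and *Chkb*, *Pemt*, *Lpcat1*, *Lpcat3*, *Plpp1* and *Plpp3* lay between 0.906 and 1.03 of theirs. None of the 10 passed 5% FDR in either direction in edgeR's quasi-likelihood test (p adjusted by Benjamini-Hochberg over 13545 genes), where 1.16% of genes did (0.65% higher and 0.509% lower). At an unadjusted p under 0.05, 3 of 10 were higher and 1 was lower, against 12.9% and 10.2% of all genes tested (23.1% in either direction). A fitted log2 fold change of at least 1 was seen for 3 of 10, where 3.55% of all genes had one. These counts describe genes picked with earlier results known, and nothing is read from their excess over the background. The groups overlapped for every 1 of the 10, and 1.44% of all genes tested had groups that did not overlap. The median log2 fold change was 0.03 over the 10 and 0.02 over all genes.

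The call depended on the test and on the mice included. DESeq2 placed 2 of 10, *Chka* and *Plpp2*, past 5% FDR as higher in *Nod2*-/- mice, where it placed 3.81% of all genes as higher (7.26% in either direction). limma's voomWithQualityWeights placed the same 2 genes there, with 3.83% of all genes higher (6.22% in either direction). Without WT replicate 3, edgeR also called *Chka* and *Plpp2* (2 of 10, against 5.12% of all genes higher and 8.49% in either direction). Without WT replicate 6 it called *Plpp2* (1 of 10, against 0.629% higher and 1.07% in either direction). Leaving out WT replicate 3 together with *Nod2*-/- replicate 7 gave *Chka* (1 of 10, against 3.04% higher and 4.23% in either direction), and so did leaving out WT replicate 3 with *Nod2*-/- replicates 1, 2 and 4 (1 of 10, against 1.24% higher and 2.18% in either direction). Without WT replicates 2, 3 and 4, the mice with the most *Sftpc*, edgeR called none of the 10 (against 0.142% of all genes).

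**Figure D1:**
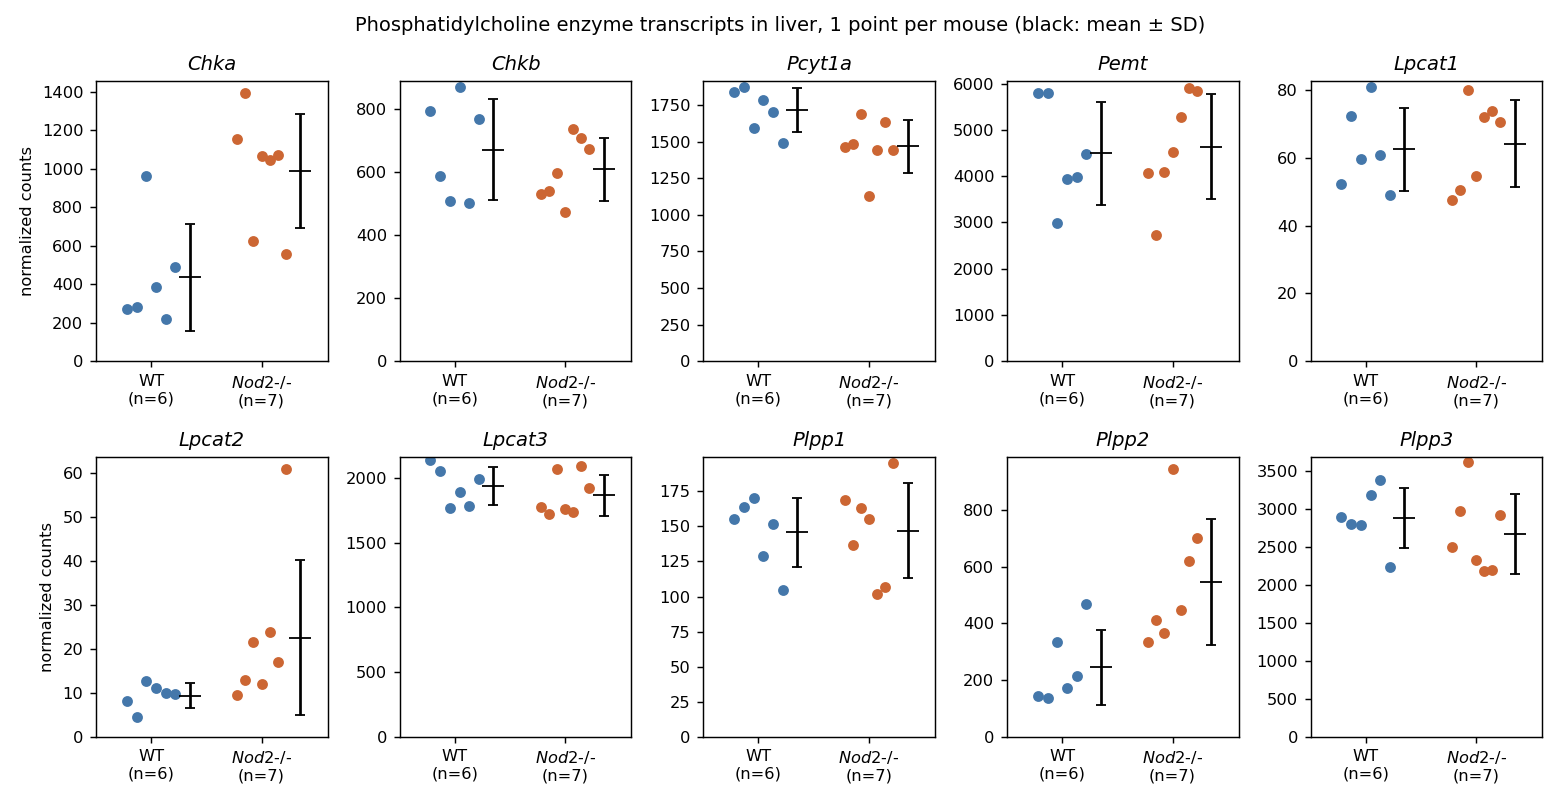
Normalized counts (y axis, from 0) of the 10 enzyme transcripts in each of 6 WT and 7 *Nod2*-/- mice, 1 point per mouse, with the group mean ± SD in black. *Chka* and *Plpp2* are higher in most *Nod2*-/- mice, *Lpcat2* is highest in a single *Nod2*-/- mouse at 60.8, *Pcyt1a* is lower in most *Nod2*-/- mice, and the ranges of both genotypes overlap for all 10.

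*Chka* (ENSMUSG00000024843.15, chr19:3851773-3894369, + strand, GRCm38) encodes choline kinase alpha, which takes choline into the CDP-choline pathway and is often abundant in tumors. Normalized counts of *Chka* were 220 to 965 (median 333) in WT and 556 to 1395 (median 1065) in *Nod2*-/- mice, with means of 435 ± 277 (SD, n = 6) and 989 ± 297 (SD, n = 7). Of the WT mice, 5 lay below every *Nod2*-/- mouse, and WT replicate 3, at 965, lay among the *Nod2*-/- values. The fitted log2 fold change was 1.18 (SE 0.32, 95% interval 0.49 to 1.87, edgeR's adjusted p = 0.0709). The 2-sided exact permutation test of the means gave p = 0.00991, unadjusted, where the smallest possible p is 0.000583. Without WT replicate 3 the log2 fold change was 1.57 (SE 0.25, adjusted p = 0.00738), and without that mouse and *Nod2*-/- replicates 1, 2 and 4 it was 1.31 (adjusted p = 0.0388, edgeR). *Nod2*-/- replicates 3 and 7, at 627 and 556, were the lowest of their group.

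The second choline kinase gene, *Chkb* (ENSMUSG00000022617.14, chr15:89426360-89429908, − strand), is the isoform known mainly from muscle. Its normalized counts were 503 to 870 (median 678) in WT and 475 to 736 (median 599) in *Nod2*-/- mice, and the ranges overlapped (log2 fold change −0.14, 95% interval −0.46 to 0.18, adjusted p = 0.59, edgeR). Per length, *Chka* made up 28.6% ± 13.6 (SD, n = 6) of the summed choline kinase level in WT and 50.7% ± 10.4 (SD, n = 7) in *Nod2*-/- mice. The share was 18.2% to 29.4% in 5 WT mice, 55.5% in WT replicate 3, and 35.1% to 62.9% in *Nod2*-/- mice. Levels per length are normalized counts per kilobase of exon of the gene's protein-coding transcripts.

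*Pcyt1a* (ENSMUSG00000005615.14, chr16:32430921-32475070, + strand), the gene of the usually limiting step, was lower in *Nod2*-/- mice by a small margin that did not pass 5% FDR. Normalized counts were 1491 to 1877 (median 1745) in WT and 1128 to 1690 (median 1462) in *Nod2*-/- mice. All 7 *Nod2*-/- mice lay below the WT median, and 5 of them lay below every WT mouse. The log2 fold change was −0.22 (SE 0.09, 95% interval −0.42 to −0.02, adjusted p = 0.175, edgeR), and the 2-sided exact permutation p was 0.0198, unadjusted. *Pcyt1a* and *Chka*, consecutive enzymes of the CDP-choline pathway, had fitted values of opposite sign.

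*Pemt* (ENSMUSG00000000301.16, chr11:59970614-60046489, − strand), the methyltransferase of the hepatocyte route, was the most abundant of the 10 per length. Its normalized counts were 2978 to 5791 (median 4234) in WT and 2728 to 5895 (median 4518) in *Nod2*-/- mice. The lowest values of each group were in WT replicate 3 and *Nod2*-/- replicate 2, and the groups spanned the same range. The log2 fold change was 0.04 with a 95% interval from −0.36 to 0.45 (adjusted p = 0.911, edgeR), so the data bound any change to within about that interval.

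Of the acyltransferases, *Lpcat3* (ENSMUSG00000004270.13, chr6:124663027-124704418, + strand), which favors polyunsaturated acyl chains and is the main LPCAT of liver, varied least. Its normalized counts were 1769 to 2141 (median 1940) in WT and 1718 to 2090 (median 1771) in *Nod2*-/- mice, with a log2 fold change of −0.05 (95% interval −0.22 to 0.11, adjusted p = 0.704, edgeR). *Lpcat3* made up 97.7% ± 0.458 (SD, n = 6) of the summed level of *Lpcat1*, *Lpcat2* and *Lpcat3* per length in WT and 97.0% ± 0.875 (SD, n = 7) in *Nod2*-/- mice. *Lpcat1* (ENSMUSG00000021608.15, chr13:73467197-73516422, + strand), known from lung surfactant synthesis, had 49.1 to 81.1 normalized counts (median 60.2) in WT and 47.6 to 80.1 (median 70.6) in *Nod2*-/- mice, with a log2 fold change of 0.04 (95% interval −0.32 to 0.41, adjusted p = 0.908, edgeR). In the 3 WT livers with the most *Sftpc*, *Lpcat1* was 72.4, 59.6 and 81.1, and in the other 3 it was 52.3, 60.8 and 49.1. Without those 3 livers the log2 fold change of *Lpcat1* was 0.25 (adjusted p = 0.574, edgeR). The part of lung transcripts in these values was not tested.

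*Lpcat2* (ENSMUSG00000033192.5, chr8:92855339-92919279, + strand), an acyltransferase of macrophages and neutrophils that also makes platelet-activating factor, was the least abundant of the 10, with 4 to 62 raw counts per library. Its normalized counts were 4.39 to 12.7 (median 9.88) in WT and 9.52 to 60.8 (median 17.1) in *Nod2*-/- mice. *Nod2*-/- replicate 7 had the 60.8, and the other 6 *Nod2*-/- mice reached at most 23.7. The log2 fold change was 1.26 (SE 0.42, 95% interval 0.36 to 2.16, adjusted p = 0.108, edgeR), and without *Nod2*-/- replicate 7 it was 0.78 (SE 0.29, adjusted p = 0.19, edgeR). The 2-sided exact permutation p over all 13 mice was 0.0268, unadjusted.

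Replicate 7 was also the *Nod2*-/- mouse with the most neutrophil and monocyte transcripts. The 15 neutrophil markers summed to 236, 250, 2246, 1071, 925 and 707 normalized counts in WT replicates 1 to 6, and to 1154, 1591, 3030, 17358, 4162, 1499 and 71803 in *Nod2*-/- replicates 1 to 7. *Lcn2*, which hepatocytes also make, was the most abundant of them, and no marker was at 0 in all libraries. It had 53827 of the 71803 in *Nod2*-/- replicate 7, 15765 of the 17358 in *Nod2*-/- replicate 4 and 2112 of the 2246 in WT replicate 3. *S100a8* had 4776 in *Nod2*-/- replicate 7, 15.9 to 144 in the other *Nod2*-/- mice and 9.94 to 24.6 in WT mice. All 6 neutrophil markers that passed the filter had p under 0.05 in the higher direction, where 12.9% of all genes did. Their median log2 fold change was 4.35, and none of the 6 passed 5% FDR by edgeR. Without *Nod2*-/- replicate 7 the median of the same 6 was 1.96, and 5 had p under 0.05 in the higher direction. *Prtn3*, among the 6, had 2.05 to 31.9 normalized counts in WT and 12.9 to 1223 in *Nod2*-/- mice. The filter can keep such a gene through the *Nod2*-/- mice alone, so nothing is read from these counts of markers. DESeq2, which tested 14 of the 15, placed 7 past 5% FDR, all higher, where it placed 3.81% of all genes as higher. The 15 include markers near 0 in WT mice, such as *Ngp* (0 to 5.42 in WT, 1271 in *Nod2*-/- replicate 7), so nothing is read from this count either. The 12 monocyte and macrophage markers, led by *Lyz2*, summed to 1099 to 2900 in WT mice, 5930 in *Nod2*-/- replicate 7 and 1230 to 2772 in the other *Nod2*-/- mice. In bulk tissue a change in the number of a cell type and a change in RNA per cell cannot be told apart, and the part of these cells in the *Lpcat2* values was not tested. *Lpcat2* also lies 4.17 Mb from *Nod2* on chromosome 8. Within 10 Mb of *Nod2*, 5 of 148 genes tested passed 5% FDR (3.38%, against 1.13% elsewhere), 2 higher and 3 lower, and *Lpcat2* was not among them.

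*Plpp2* (ENSMUSG00000052151.12, chr10:79526430-79533796, − strand) was the member of its family with the largest difference. Normalized counts were 137 to 468 (median 193) in WT and 334 to 946 (median 448) in *Nod2*-/- mice, with means of 245 ± 131 (SD, n = 6) and 547 ± 222 (SD, n = 7). WT replicate 6, at 468, overlapped the *Nod2*-/- range, the other 5 WT mice lay below it, and *Nod2*-/- replicate 4 had the highest value. Of those 5, WT replicate 3, at 333, was about level with the lowest *Nod2*-/- mouse, at 334. The log2 fold change was 1.15 (SE 0.32, 95% interval 0.47 to 1.84, adjusted p = 0.0723, edgeR), with a 2-sided exact permutation p of 0.0122, unadjusted. Without WT replicate 6 it was 1.45 (adjusted p = 0.0423) and without WT replicate 3 it was 1.25 (adjusted p = 0.0416), both by edgeR. Without WT replicate 3 and *Nod2*-/- replicates 1, 2 and 4 it was 1.21 (adjusted p = 0.0741, edgeR).

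Its paralogs did not share that difference in fitted value. *Plpp3* (ENSMUSG00000028517.8, chr4:105157347-105232764, + strand), which degrades extracellular lysophosphatidic acid, had 2237 to 3380 normalized counts (median 2851) in WT and 2184 to 3615 (median 2497) in *Nod2*-/- mice, fitted as −0.11 on the log2 scale (95% interval −0.39 to 0.17, adjusted p = 0.642, edgeR). *Plpp1* (ENSMUSG00000021759.14, chr13:112800792-112867894, + strand) had 105 to 170 (median 154) and 102 to 195 (median 155), fitted as 0.01 on the log2 scale (95% interval −0.34 to 0.36, adjusted p = 0.979, edgeR). *Plpp2* made up 13.1% ± 7.60 (SD, n = 6) of the summed level of the 3 genes per length in WT and 26.2% ± 9.12 (SD, n = 7) in *Nod2*-/- mice. *Plpp3* remained the largest part, with 79.6% ± 7.04 in WT and 67.2% ± 8.79 in *Nod2*-/- mice. The *Plpp2* share was highest in *Nod2*-/- replicate 4, at 41.0%, and WT replicates 3 and 6, at 17.0% and 26.9%, lay within the *Nod2*-/- range.

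**Figure D2:**
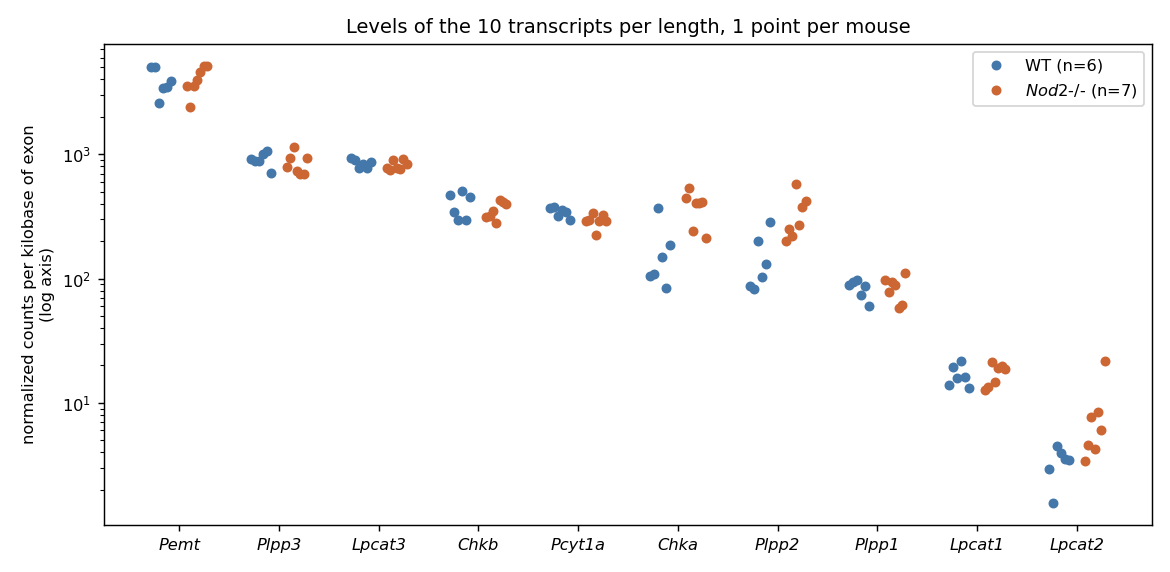
Normalized counts per kilobase of exon (y axis, log scale) of the 10 enzyme transcripts, in order of their mean over all mice, 1 point per mouse for 6 WT and 7 *Nod2*-/- mice. *Pemt* lies above all others in every mouse, and *Lpcat2* lies below *Lpcat1* in 12 of 13 mice.

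The order of levels per length, averaged over all mice, was *Pemt*, *Plpp3*, *Lpcat3*, *Chkb*, *Pcyt1a*, *Chka*, *Plpp2*, *Plpp1*, *Lpcat1* and *Lpcat2*. *Pemt* had 3924 ± 975 normalized counts per kilobase in WT mice and *Lpcat2* had 3.32 ± 1.01 (SD, n = 6 each). *Pemt* exceeded *Plpp3*, *Lpcat3* exceeded *Chkb*, and *Plpp1* exceeded *Lpcat1* in all 13 mice with no overlap of their ranges. The ranges of all other neighbors overlapped. *Plpp3* and *Lpcat3* could not be ordered, since *Plpp3* was higher in 7 of 13 mice. *Pcyt1a* and *Chka* could not be ordered either: *Pcyt1a* was higher in 7 of 13 mice, with 343 ± 29.9 against 167 ± 106 per kilobase in WT and 294 ± 36.0 against 380 ± 114 in *Nod2*-/- mice. The order of group means was not the same in both genotypes. *Chka* lay below *Chkb* in WT (394 ± 93.4) and above it in *Nod2*-/- mice (357 ± 58.2), and *Plpp2* lay below *Pcyt1a* in WT (148 ± 79.1) and above it in *Nod2*-/- mice (331 ± 134), with ranges over all mice that overlapped in both pairs.

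Tumor, progenitor, biliary and mitosis markers are given beside *Chka* and *Plpp2* because WT replicate 3 was the highest WT mouse for the summed level of each list. That mouse was also the highest WT mouse for the neutrophil, monocyte and macrophage, T cell, endothelial, stellate and fibroblast, and adipose sums. The 12 tumor and progenitor markers, led by *Spp1*, summed to 843, 827, 11516, 1338, 2627 and 3540 normalized counts in WT replicates 1 to 6, and to 13518, 12326, 4014, 16480, 4646, 3251 and 7141 in *Nod2*-/- replicates 1 to 7. Of the 11 that passed the filter, 4 had p under 0.05 in the higher direction (12.9% of all genes tested did), and *Sox9* passed 5% FDR (log2 fold change 1.29, adjusted p = 0.0324, edgeR). The 9 biliary markers, which share *Sox9*, *Spp1*, *Epcam* and *Krt19* with them, summed to 2075 ± 1664 in WT and 4589 ± 2039 in *Nod2*-/- mice, with 5198 in WT replicate 3. The 12 mitosis markers, led by *Mki67*, summed to 62.5 to 305 in WT, with the 305 in replicate 3. In *Nod2*-/- mice they summed to 178 to 667. Of 8 tested, 6 had p under 0.05 in the higher direction and none passed 5% FDR by edgeR. Some were low in WT mice, such as *Nusap1* (1.10 to 18.1 in WT, 5.14 to 54.9 in *Nod2*-/- mice). The filter can keep such genes through the *Nod2*-/- mice alone, so nothing is read from this count. DESeq2, which tested all 12 mitosis markers, placed 5 past 5% FDR as higher, where it placed 3.81% of all genes as higher. The 12 include markers that the edgeR filter had dropped, such as *Plk1* (0 to 4.52 in WT, 3.08 to 23.8 in *Nod2*-/- mice). Nothing is read from this count either. How far tumor tissue in the samples bears on *Chka* and *Plpp2* was not tested.

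**Figure D3:**
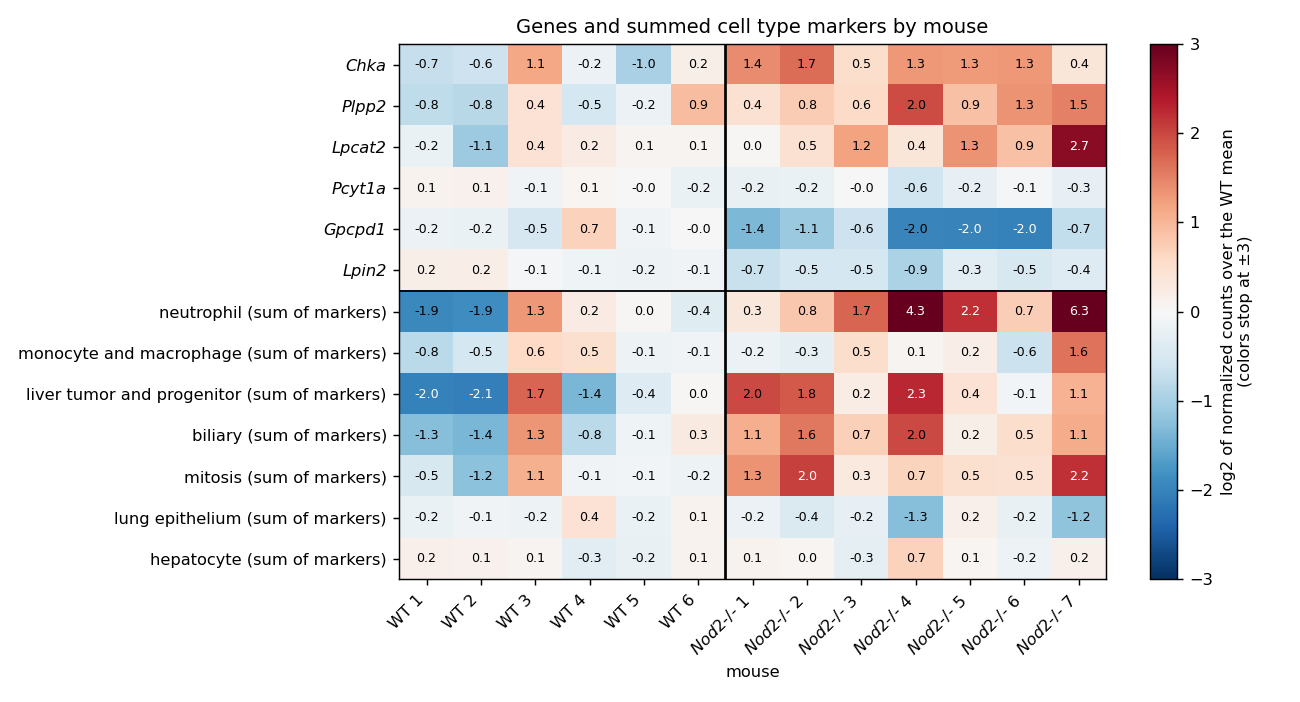
Log2 ratio of normalized counts to the WT mean for 6 genes (upper rows) and for summed markers of 7 cell types or states (lower rows) in each mouse, with colors that stop at ±3. *Nod2*-/- replicate 7 stands out for neutrophil markers (6.31) and *Lpcat2* (2.70), and WT replicate 3 stands out among WT mice for tumor and progenitor markers (1.74) and *Chka* (1.15).

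Of 8 Kupffer cell markers, led by *C6*, 2 had p under 0.05 in the higher direction, where 12.9% of all genes did (sum 7605 ± 2184 in WT and 9036 ± 906 in *Nod2*-/- mice). Of 10 endothelial markers, led by *Clec4g*, 4 did (4328 ± 540 and 4864 ± 422), and of 10 stellate and fibroblast markers, led by *Dcn*, none did (4835 ± 1382 and 4839 ± 480). The 9 T cell markers, led by *Cd4*, summed to 80.0 ± 12.7 and 113 ± 48.9, and the 7 adipose markers, led by *Fabp4*, to 342 ± 138 and 640 ± 243. The 14 lung epithelium markers, led by *Cyp2f2*, which liver also expresses, summed to 19799 ± 3625 and 14967 ± 5039, with 5 of 8 tested at p under 0.05 in the lower direction, where 10.2% of all genes were. Most of these sums came from *Cyp2f2* (means of 14905 and 11445) and *Abca3* (3694 and 3319). *Sftpc* alone had 643 ± 678 in WT and 74.3 ± 91.9 in *Nod2*-/- mice. Apart from the *Sox9* call, none of the markers tested in these 12 lists passed 5% FDR by edgeR. DESeq2 placed 6 of 12 lung epithelium markers as lower. It placed as higher 2 of 10 endothelial, 2 of 11 tumor and progenitor, 1 of 7 biliary, 1 of 3 adipose and 1 of 12 monocyte and macrophage markers. It placed 3.81% of all genes as higher and 7.26% in either direction. Low-count markers can be kept in these tests through the group where they are higher, so nothing is read from these counts. Without WT replicate 3, edgeR called more markers, among them 5 tumor and progenitor and 4 endothelial, all higher (5.12% of all genes).

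The genes most like *Chka* in their deviations from the group means over 13 mice were *Helq* (Pearson r = 0.91), *Camsap1* (0.87) and *Trip10* (0.86). Among the closest to *Plpp2* were *Slc6a8* (0.94) and *Faap20* (0.93). Among the closest to *Lpcat2* were *Pkn3* (0.94) and *Cd44* (0.93), an adhesion receptor abundant on leukocytes. These r values were picked as the highest among 13545 genes, and the mice with extreme values weigh on them.

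The upstream sequences of *Chka*, *Plpp2* and *Lpcat2*, the members with the highest fitted values, and of *Pcyt1a*, a textbook target of sterol regulatory element binding proteins, are shown for reference (RefSeq starts, build GRCm38.p6). RefSeq windows were found for 9 of 10 members, all but *Plpp1*, and numbered 12, since *Pcyt1a* and *Pemt* have more than 1 start. Each run is 5′ to 3′ on the gene's strand and covers the part of the 250 bases before the start that lies outside the annotated gene, which is 241 bases for *Plpp2* and 250 for the other 3. Capitals mark the CCAAT box (CCAAT), the GC box (GGGCGG) and the sterol regulatory element (TCACNCCAC), on either strand. The coordinates are chr19:3851523-3851772 (+) for *Chka*, chr10:79533797-79534037 (−) for *Plpp2*, chr8:92855083-92855332 (+) for *Lpcat2* and chr16:32430671-32430920 (+) for *Pcyt1a*.
Chka: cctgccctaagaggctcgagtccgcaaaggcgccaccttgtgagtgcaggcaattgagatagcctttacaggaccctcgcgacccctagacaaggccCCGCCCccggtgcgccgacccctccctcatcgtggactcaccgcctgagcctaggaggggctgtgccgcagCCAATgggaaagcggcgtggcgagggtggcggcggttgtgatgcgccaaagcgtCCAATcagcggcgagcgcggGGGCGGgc
Plpp2: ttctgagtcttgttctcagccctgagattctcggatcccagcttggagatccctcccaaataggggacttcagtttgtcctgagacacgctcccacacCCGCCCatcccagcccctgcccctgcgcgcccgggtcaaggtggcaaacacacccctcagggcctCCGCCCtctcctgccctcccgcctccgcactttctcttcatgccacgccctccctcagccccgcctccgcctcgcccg
Lpcat2: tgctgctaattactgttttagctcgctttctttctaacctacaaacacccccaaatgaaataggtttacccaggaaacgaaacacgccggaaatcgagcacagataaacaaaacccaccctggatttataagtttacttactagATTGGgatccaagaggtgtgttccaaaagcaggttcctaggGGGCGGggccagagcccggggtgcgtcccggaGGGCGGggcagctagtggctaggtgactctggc
Pcyt1a: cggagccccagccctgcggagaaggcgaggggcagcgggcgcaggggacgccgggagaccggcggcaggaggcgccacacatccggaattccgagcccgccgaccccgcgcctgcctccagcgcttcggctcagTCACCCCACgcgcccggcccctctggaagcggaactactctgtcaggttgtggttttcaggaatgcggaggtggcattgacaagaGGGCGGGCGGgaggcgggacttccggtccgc
Over the whole 250-base windows, a CCAAT box was found in 5 of the 12 (33.8% of all 32851 windows of that length) and a GC box in 8 of the 12 (32.7%). The windows of *Chka*, *Chkb*, *Lpcat2* and *Lpcat3* had both, and that of *Plpp2* had the GC box without the CCAAT box. The remaining CCAAT box was in a window of *Pemt* that lies within the annotated gene. The sterol regulatory element was found in 2 windows (1.05% of all windows), which overlap and belong to *Pcyt1a*. The E-box CACGTG (6.02%) and the AP-1 site TGANTCA (6.75%) were found in none of the 12. A match is a string of letters and not a measured site.

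The other genes of phosphatidylcholine metabolism, 99 in 8 lists, were compared to place the 10 enzymes among their partners. Of 86 that passed the filter, 2 fell and none rose at 5% FDR, against 0.509% and 0.65% of all genes. At an unadjusted p under 0.05, 9 were higher and 20 were lower, where 12.9% and 10.2% of all genes were. By DESeq2, 3 were higher and 13 were lower at 5% FDR of 91 tested, with 7.26% of all genes past it in either direction. The median log2 fold change of the 86 was −0.04, against 0.02 over all genes.

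The 2 genes that fell were *Gpcpd1* and *Lpin2*. *Gpcpd1*, which releases choline from glycerophosphocholine, had 2839 to 6510 normalized counts (median 3676) in WT and 988 to 2611 (median 1583) in *Nod2*-/- mice. The groups did not overlap, as was so for 1.44% of all genes tested (log2 fold change −1.30, SE 0.26, adjusted p = 0.0346, edgeR). The phosphatidic acid phosphatase gene *Lpin2*, whose product supplies diacylglycerol, had 5325 to 6845 (median 5642) in WT and 3091 to 4742 (median 4105) in *Nod2*-/- mice, and these groups did not overlap either (log2 fold change −0.54, SE 0.11, adjusted p = 0.035, edgeR). The 2-sided exact permutation p was 0.000583 for each, unadjusted, the smallest possible. Groups without overlap put this p at or near that floor, and both genes are named for their edgeR calls. Nothing further is read from it. For both genes the call was lost when WT replicate 1, 2, 4 or 5 or *Nod2*-/- replicate 6 was left out, for *Gpcpd1* also without *Nod2*-/- replicate 4 and for *Lpin2* also without *Nod2*-/- replicate 7. Both calls were also lost with 1 surrogate variable in the fit (log2 fold changes −1.24 and −0.45, adjusted p = 0.254 and 0.264, edgeR). Over all 13 fits without 1 mouse, the log2 fold change was −1.45 to −1.12 for *Gpcpd1* and −0.58 to −0.48 for *Lpin2*, and the adjusted p by edgeR reached at most 0.0799 for *Gpcpd1* and 0.099 for *Lpin2*.

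Among the other lipid phosphatases, *Lpin1* had 1188 to 3380 normalized counts (median 2145) in WT and 349 to 1505 (median 1276) in *Nod2*-/- mice (log2 fold change −1.11, adjusted p = 0.0849, edgeR), while *Lpin3* had 0.11 (adjusted p = 0.802, edgeR). Of the 7 genes tested in this list, 5 had positive and 2 had negative fitted values, and the 2 were *Lpin1* and *Lpin2*. By DESeq2, which tested 8, 2 were lower and none higher at 5% FDR (7.26% of all genes in either direction). *Lpin1* passed 5% FDR under 1 of 24 alternatives. *Plpp6* (0.11) and *Plppr2* (0.29), relatives of *Plpp2*, were not called (log2 fold changes, edgeR).

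In choline entry and the rest of the CDP pathways no gene passed 5% FDR by edgeR. The choline transporter-like genes *Slc44a1*, *Slc44a2* and *Slc44a3* had log2 fold changes of 0.28, 0.35 and 0.61. Of 6 genes tested in the entry list, 2 had p under 0.05, *Slc44a1* and *Slc44a3*, both higher, where 12.9% of all genes were. *Chpt1*, the cholinephosphotransferase that follows *Pcyt1a*, had a mean of 3803 ± 838 (SD, n = 6) in WT and 2571 ± 760 (SD, n = 7) in *Nod2*-/- mice (log2 fold change −0.56, adjusted p = 0.124, edgeR), and *Cept1* had a log2 fold change of −0.04. On the ethanolamine side, *Pcyt2*, the counterpart of *Pcyt1a*, had 5645 ± 973 and 7420 ± 1031 (log2 fold change 0.39, adjusted p = 0.103, edgeR). *Etnk1*, *Etnk2* and *Selenoi*, the other steps, had 0.15, −0.17 and −0.11, and *Ptdss1*, which exchanges choline for serine, had −0.29.

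Genes that oxidize choline or use its methyl groups had mostly negative fitted values. Of 11 tested, 10 were negative and 5 had p under 0.05, all lower, with none past 5% FDR by edgeR and 3 past it by DESeq2. Over all genes tested, 47.7% were negative and 10.2% had p under 0.05 in the lower direction, and DESeq2 placed 7.26% past 5% FDR in either direction. *Chdh*, choline dehydrogenase, had 2423 to 3351 normalized counts (median 3033) in WT and 1472 to 2623 (median 1872) in *Nod2*-/- mice (log2 fold change −0.52, adjusted p = 0.0659, edgeR). *Dmgdh*, dimethylglycine dehydrogenase, had 8261 to 14395 (median 11637) and 3516 to 8914 (median 7360), which fitted as −0.72 on the log2 scale (adjusted p = 0.0688, edgeR). *Sardh* (−0.49) and *Aldh7a1* (−0.36) were also lower in fitted value, as were *Bhmt* (−0.36) and *Mat1a* (−0.13), while *Gnmt*, which competes with *Pemt* for S-adenosylmethionine, had 0.07. The summed level of the list is led by *Mat1a* (mean 49697 over all mice), and *Chdh* and *Dmgdh* are a small part of it. This sum was lowest in WT replicate 3 among WT mice, 99905 against 133679 to 186484, and in *Nod2*-/- replicate 4, at 87327, over all mice. Next lowest were *Nod2*-/- replicates 2 and 1, at 101785 and 108684, and the remaining mice had 122360 to 186484. These lowest mice were also those with the most tumor and progenitor transcripts. How far that bears on the fitted values of the list was not tested.

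**Figure D4:**
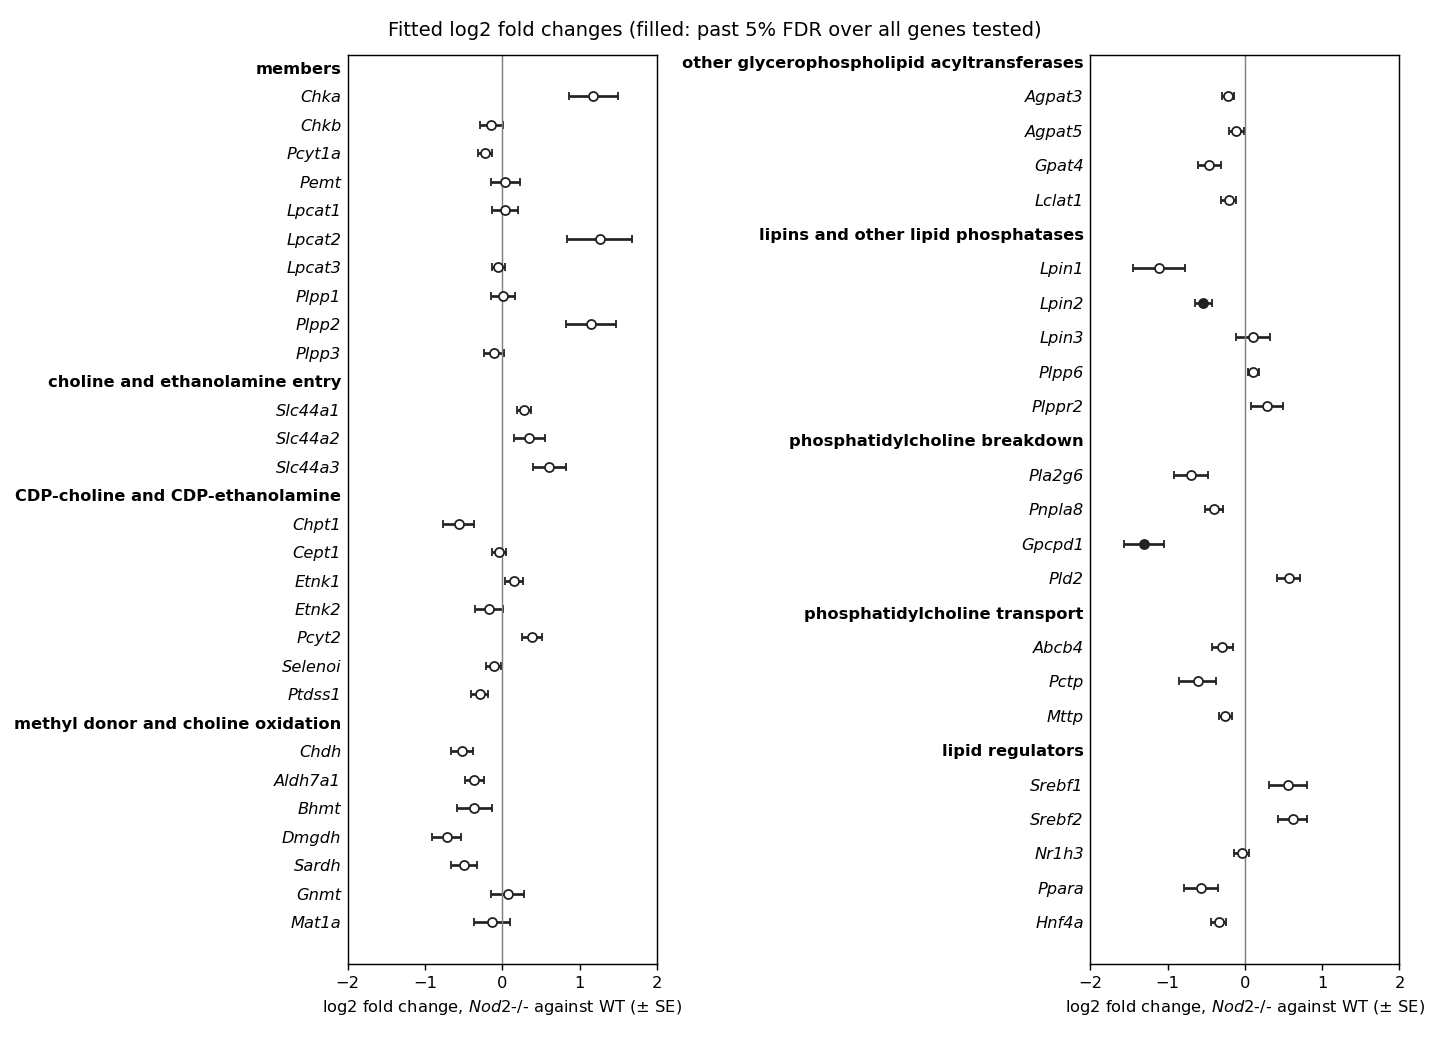
Fitted log2 fold changes of *Nod2*-/- against WT mice (x axis, ± SE) for the 10 enzymes and genes of 8 pathway lists, with filled symbols for genes past 5% FDR over all genes tested. *Lpin2* (−0.54) and *Gpcpd1* (−1.30) are filled, and *Chka*, *Lpcat2* and *Plpp2* are the 3 members beyond 1.

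The list of other acyltransferases had 6 positive and 6 negative fitted values among 12 tested. By DESeq2, which tested 14, 2 were lower at 5% FDR, where 7.26% of all genes passed it in either direction. First by p were *Gpat4* (−0.46, adjusted p = 0.0957), *Agpat3* (−0.22, adjusted p = 0.113), *Lclat1* (−0.21) and *Agpat5* (−0.11), as edgeR log2 fold changes. Among 19 breakdown genes tested, 4 were higher and 4 lower at p under 0.05, where 12.9% and 10.2% of all genes were. By DESeq2, which tested 20, 2 were higher and 4 lower at 5% FDR (7.26% of all genes in either direction). The calcium-independent phospholipases A2 *Pla2g6* and *Pnpla8* fitted as −0.70 and −0.40 on the log2 scale (adjusted p = 0.0923 for each), and phospholipase D2, *Pld2*, had 0.57 (adjusted p = 0.0694, edgeR). Of 10 transport genes, 9 had negative values, where 47.7% of all genes did. *Abcb4*, which moves phosphatidylcholine into bile, had −0.29, *Pctp*, the phosphatidylcholine transfer protein gene, had −0.61, and *Mttp*, which loads lipid onto lipoproteins, had −0.25. Of the genes named in these 3 lists, *Gpcpd1* alone passed 5% FDR by edgeR, and of the transport genes 1 did by DESeq2, lower.

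Regulators of these genes were split in sign, 6 positive and 6 negative of 12 tested, with none past 5% FDR by edgeR. DESeq2 placed 1 higher and 1 lower past it, *Srebf2* (0.60, adjusted p = 0.0366) and *Hnf4a* (−0.36, adjusted p = 0.00591), against 7.26% of all genes in either direction. *Srebf2*, the regulator of sterol synthesis, had 474 to 828 normalized counts (median 617) in WT and 715 to 1377 (median 843) in *Nod2*-/- mice (log2 fold change 0.62, adjusted p = 0.0867), and *Srebf1* had 0.56 (adjusted p = 0.199, edgeR). *Ppara*, the fatty acid-sensing receptor, had −0.57 (adjusted p = 0.15), *Hnf4a*, a hepatocyte factor, had −0.34 (adjusted p = 0.0805), and *Nr1h3*, which encodes LXR alpha and is known to induce *Lpcat3*, had −0.04 (adjusted p = 0.847, edgeR).

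**Figure D5:**
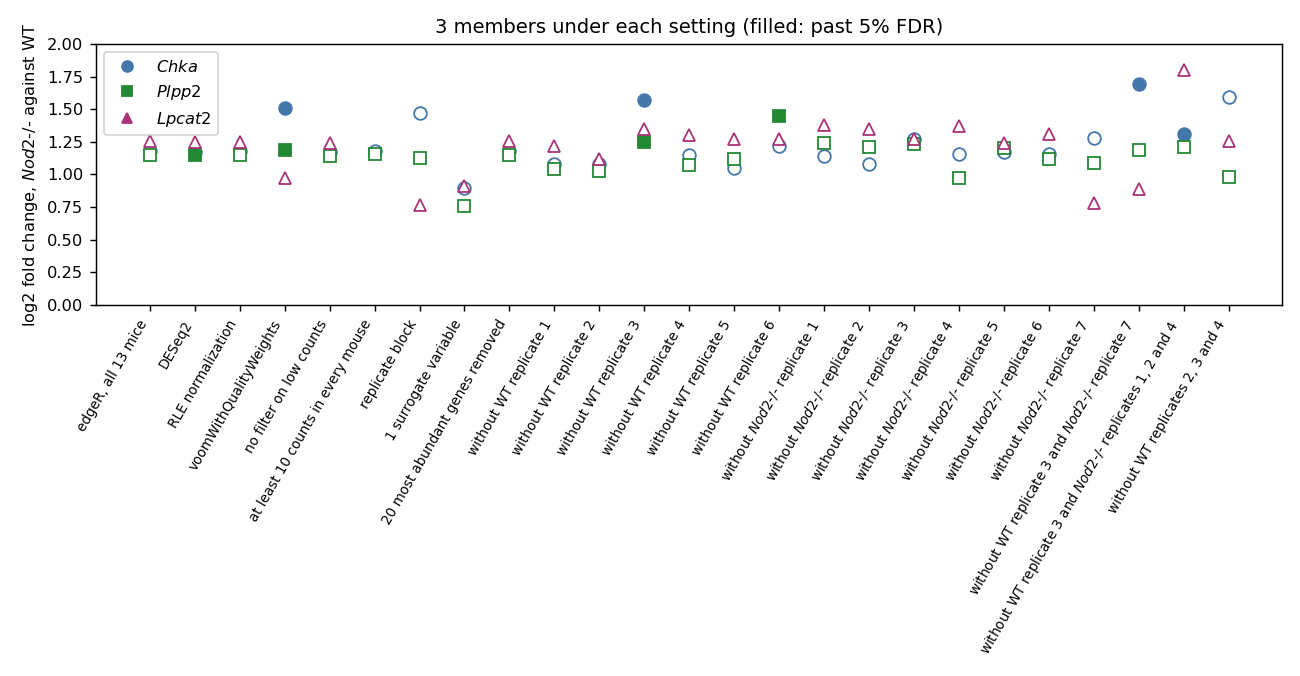
Log2 fold change of *Nod2*-/- against WT mice (y axis) for *Chka*, *Plpp2* and *Lpcat2* in all 13 mice by edgeR and under each alternative test, scaling, filter or omission of mice (x axis), with filled symbols past 5% FDR. All values are positive, from 0.76 to 1.80, and *Lpcat2* is never filled.

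Annotated genes overlap several of the 10 enzymes, and the sources used here do not say whether counting used strand. *Emg1*, on the opposite strand at the end of *Lpcat3*, had 618 to 1103 raw counts per library, and *Mtrex*, opposite the end of *Plpp1*, had 223 to 430. Neither differed between groups past 5% FDR (log2 fold changes 0.10 and −0.15, edgeR). *C730034F03Rik*, opposite *Chkb*, had 3 to 45 raw counts and a fitted value of −0.98 on the log2 scale (adjusted p = 0.166, edgeR). The genes that overlap *Chka*, *Lpcat2* and *Plpp2* and are in the table (*Gm16066*, *Gm45472*, *Capns2*, *Gm22151* and *Mir6909*) had at most 2 raw counts in any library, and *Slc51a*, opposite *Pcyt1a*, had none.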

How the data were processed

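Per the labels, libraries were made from polyadenylated liver RNA with a strand-specific kit and sequenced as paired ends. Trimming was by Trimmomatic 0.33 and mapping by TopHat2 2.1.1 to GRCm38 (GENCODE M16 annotation), and the authors deposited raw counts of reads for each gene in each library. Which program counted them is not given in the sources used here. A blank entry was dropped. Names, positions and exon lengths came from GENCODE M21, which held 53360 of 53465 genes.

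The 13545 genes kept by filterByExpr went into edgeR 4.0.16 under R 4.3.3 (TMM, glmQLFit, glmQLFTest, no covariate, Benjamini-Hochberg, 5% FDR), for *Nod2*-/- against WT. Intervals use the fit's degrees of freedom. The filter can keep a gene through the group where it is higher, which tilts counts over low-count markers toward that group. The members and lists were chosen with earlier results of these data known. Lists covered 8 parts of the pathway and 12 cell types or states. Text names the members, up to 4 genes of smallest p per pathway list, those past 5% FDR, listed core enzymes and regulators, and the most abundant marker of each list. A few genes that this rule picks are left out of the text. In all 36 same-genotype pairs the libraries differed by more than counting noise (chi-square over its degrees of freedom at least 10.7). Alternatives were DESeq2 1.42.0 (the study's tool), limma 3.58.1 voomWithQualityWeights, RLE scaling, no filter, a minimum of 10 counts in all mice, the replicate number as a block, 1 surrogate variable (sva 3.50.0), removal of the 20 most abundant genes and omission of mice. The tests were checked on simulated data. The precision of low counts is limited by depth, and p-values cover the spread between mice.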

Additional observations from a re-analysis of the deposited data

Results flagged for a closer look

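For each of the 50 genes named among the 10 enzymes and the pathway lists, the highest and lowest mouse of each genotype was compared with the others by Dixon's gap over range, and 10 of 100 groups were past the 95% limit, where chance gives about 1 in 20. Among the enzymes, *Chka* in WT replicate 3 stood at 965 normalized counts (gap over range 0.639), and *Lpcat2* in *Nod2*-/- replicate 7 stood at 60.8 (0.723). Without those mice the log2 fold changes were 1.57 and 0.78. *Slc44a2* was also highest in *Nod2*-/- replicate 7, at 202, and its log2 fold change without that mouse was 0.17. In WT replicate 3, *Slc44a3* was highest at 167 and *Agpat3* lowest at 3612, and without it their log2 fold changes were 0.79 (adjusted p = 0.0317, edgeR) and −0.27 (adjusted p = 0.0382, edgeR). WT replicate 2 was highest for *Slc44a1*, at 840, and *Selenoi*, at 1033, and without it their log2 fold changes were 0.35 and −0.07. *Gpcpd1* was highest in WT replicate 4, at 6510, and without it the log2 fold change was −1.12 (adjusted p = 0.0799, edgeR). *Bhmt* was lowest in *Nod2*-/- replicate 4, at 8648, and *Plpp6* was lowest in *Nod2*-/- replicate 5, at 275. Without the mouse named for each, the log2 fold changes were −0.23 for *Bhmt* and 0.14 for *Plpp6*, against −0.36 and 0.11 with all mice.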

How the results depend on the processing

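Over 24 alternatives, the log2 fold change stayed positive for *Chka* (0.90 to 1.69), *Plpp2* (0.76 to 1.45) and *Lpcat2* (0.77 to 1.80; not computed where 10 counts were required in every mouse) and negative for *Pcyt1a* (−0.26 to −0.09) and *Plpp3* (−0.20 to −0.06). *Chka* and *Plpp2* passed 5% FDR by DESeq2 (1.17 and 1.15, 2 members higher) and voomWithQualityWeights (1.51 and 1.19, 2 members higher). Genes higher and lower numbered 88 and 69 by edgeR, 605 and 549 by DESeq2, 519 and 324 by voomWithQualityWeights, and 19 and 14 with 1 surrogate variable. Same-numbered mice did not deviate together (correlations −0.29 to 0.28 over 6 pairs), so the numbers do not pair them; with the replicate block 17 genes were higher and 18 lower, with *Chka* at 1.47, *Pemt* at −0.02 and *Plpp1* at −0.08. Leaving out 1 mouse gave 0 to 2 members higher, 20 to 697 genes higher and 20 to 459 lower, and log2 fold changes of 1.05 to 1.57 (*Chka*), 0.97 to 1.45 (*Plpp2*), −0.06 to 0.13 (*Pemt*), −0.02 to 0.13 (*Lpcat1*), −0.07 to 0.08 (*Plpp1*), −0.08 to 0.02 (*Cept1*), −0.02 to 0.18 (*Gnmt*), −0.03 to 0.27 (*Lpin3*) and −0.12 to 0.00 (*Nr1h3*). The extremes came without WT replicate 3 (697 and 459), WT replicate 4 (20 higher) and WT replicate 1 (20 lower). Chosen after seeing the data, leaving out WT replicate 3 and *Nod2*-/- replicate 7 gave 408 and 159 genes and 1 member higher, with *Chka* at 1.69, *Pemt* at −0.11, *Plpp1* at −0.02, *Gnmt* at −0.07, *Cept1* at −0.10 and *Nr1h3* at −0.14, and leaving out WT replicate 3 and *Nod2*-/- replicates 1, 2 and 4 gave 168 and 127 genes and 1 member higher, with *Chka* at 1.31, *Plpp1* at −0.01 and *Mat1a* at 0.00, and leaving out WT replicates 2, 3 and 4 gave 11 and 9 genes and no member, with *Pemt* at −0.04. Signs also turned for *Pemt* by voomWithQualityWeights (−0.06), for *Plpp1* by DESeq2 (−0.01), RLE (0.00) and no filter (−0.01), and with 1 surrogate variable for *Lpcat3* (0.03), *Plpp1* (−0.07), *Cept1* (0.05), *Etnk2* (0.09), *Mat1a* (0.12), *Lpin3* (−0.17) and *Nr1h3* (0.05), all far from 5% FDR; the cause was not tested. *Gpcpd1* and *Lpin2* lost their calls under the replicate block (−1.47 and −0.57, adjusted p = 0.112 and 0.114, edgeR). Both were also lost without WT replicate 3 and *Nod2*-/- replicates 1, 2 and 4 (−1.30 and −0.45, adjusted p = 0.0576 and 0.0628, edgeR). The same held without WT replicates 2, 3 and 4 (−1.21 and −0.53, adjusted p = 0.158 and 0.170, edgeR). No scaling moved the median of all genes by more than 0.05.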
